A study of Mus musculus with 36 samples.

Results

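The transcripts examined here are those of 10 chemokines that draw monocytes, neutrophils and lymphocytes into tissue: Ccl2, Ccl7, Ccl8, Ccl6, Ccl9, Cxcl1, Cxcl9, Cxcl10, Cxcl12 and Cx3cl1. They were chosen by name and matched by symbol to 10 of the 78239 gene identifiers in the count files. Heart, kidney and liver RNA came from wild-type male mice of the inbred substrain C57BL/6NCrl, killed when 8, 10 or 12 weeks old. The mice were bought at 6 weeks and fed standard chow, and no agent was tested. Before the organs were frozen, every animal had been given ketamine and xylazine and had been bled. Each of the 9 groups held 4 libraries, 36 in all, and the labels set the groups apart by tissue and age alone. Since all mice were bought at the same age, time since purchase rose with age. Batches of preparation are not named.

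Chemokines are small secreted proteins that bind receptors on leukocytes and guide them along a gradient. Inflammatory chemokines are made on demand by macrophages, endothelial cells, fibroblasts and parenchymal cells after signals through NF-kappaB or interferons, whereas homeostatic chemokines are made all the time and hold cells in place. Cxcl12 is the homeostatic chemokine that acts on Cxcr4 and is cleared by Ackr3, and Cx3cl1 is tethered to the membrane and binds Cx3cr1 on monocytes and macrophages. Ccl2 and Ccl7 bind Ccr2 on monocytes, Ccl6 and Ccl9 bind Ccr1, Cxcl1 binds Cxcr2 on neutrophils, and Cxcl9 and Cxcl10 bind Cxcr3 on activated T cells.

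All 10 are protein-coding genes, and positions are given on GRCm39. A cluster on chromosome 11 holds Ccl2 (chr11:81926397-81928279), Ccl7 (chr11:81936532-81938351) and Ccl8 (chr11:82006007-82007625) on the plus strand, and Ccl9 (chr11:83463745-83473161) and Ccl6 (chr11:83478708-83483913) on the minus strand. Chromosome 5 holds Cxcl1 (chr5:91039094-91040974, plus strand) and the neighbours Cxcl9 (chr5:92469206-92475945) and Cxcl10 (chr5:92494497-92496748), both on the minus strand. Cxcl12 lies at chr6:117144945-117158328 and Cx3cl1 at chr8:95498637-95509055, both on the plus strand.

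The promoters of the inducible CXC members are shown because they held the motif matches given here. The 250 bases before the start of each gene's canonical Ensembl transcript were read from the GRCm39 genome, and matches on both strands are given for 2 short motifs: GGGA, any 4 bases and CC for NF-kappaB, and GAAA, any 2 bases and GAAA for the interferon-stimulated response element. Letters in capitals mark a match, and each line runs 5′ to 3′ on the strand of the gene, from chr5:91038844-91039093 (plus), chr5:92475946-92476195 (minus) and chr5:92496749-92496998 (minus).
Cxcl1: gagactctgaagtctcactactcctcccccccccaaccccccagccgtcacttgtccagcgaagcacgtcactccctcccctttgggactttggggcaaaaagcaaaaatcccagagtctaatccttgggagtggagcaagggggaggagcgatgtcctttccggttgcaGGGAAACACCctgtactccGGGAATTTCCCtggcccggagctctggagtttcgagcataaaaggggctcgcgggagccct
Cxcl9: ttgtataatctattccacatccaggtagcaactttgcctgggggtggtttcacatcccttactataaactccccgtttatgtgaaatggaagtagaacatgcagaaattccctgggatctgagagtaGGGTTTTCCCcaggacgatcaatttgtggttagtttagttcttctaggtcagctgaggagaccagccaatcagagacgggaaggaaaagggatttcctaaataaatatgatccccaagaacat
Cxcl10: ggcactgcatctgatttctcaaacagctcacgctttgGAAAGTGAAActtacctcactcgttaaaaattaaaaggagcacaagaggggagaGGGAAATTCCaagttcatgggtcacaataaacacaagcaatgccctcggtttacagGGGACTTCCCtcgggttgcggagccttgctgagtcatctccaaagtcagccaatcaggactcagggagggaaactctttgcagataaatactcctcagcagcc

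The Cxcl1 promoter held 3 matches to the NF-kappaB letters, of which 2 overlap in a single run on opposite strands, all between 80 and 51 bases before the start. The Cxcl10 promoter held 2 NF-kappaB matches and 1 match to the interferon-stimulated response element, and the Cxcl9 promoter held 1 NF-kappaB match. The promoters of Ccl2, Ccl7, Ccl8, Ccl6, Ccl9, Cxcl12 and Cx3cl1 had neither motif in this window. For Ccl9 and Cxcl12 the canonical transcript starts inside the gene range given above, so their windows lie within that range. Among 21770 promoters of the same length, 18.2% held the NF-kappaB letters and 3.32% the interferon-stimulated response element. A match describes the letters and is not a measured binding site.

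Libraries held 21031599 to 33637390 read pairs counted on genes, and levels are given as CPM (a gene's counts brought to a common library total), scaled by trimmed mean of M values (TMM) factors over the 36 libraries, in which a library with no count allows a level of up to 0.0892 to 0.143 CPM before scaling. Each labelled tissue carried its markers, with 52749 CPM of summed cardiomyocyte markers in heart, 125973 CPM of hepatocyte markers in liver and 9016 CPM of kidney tubule markers in kidney. Replicates 2 and 4 of 10-week heart stood apart by 19.8 and 24.7 CPM of summed hepatocyte markers, where the other heart libraries had 0.11 to 4.17. Replicate 2 of 10-week liver and replicate 1 of 12-week liver stood apart by 24.3 and 24.4 CPM of neutrophil markers, where the other liver libraries had 1.41 to 6.53. Values without these 4 libraries are given beside some of the results they touch, and all other values include them. In bulk tissue, fewer cells of a type and less RNA per cell cannot be told apart.

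**Figure D1:**
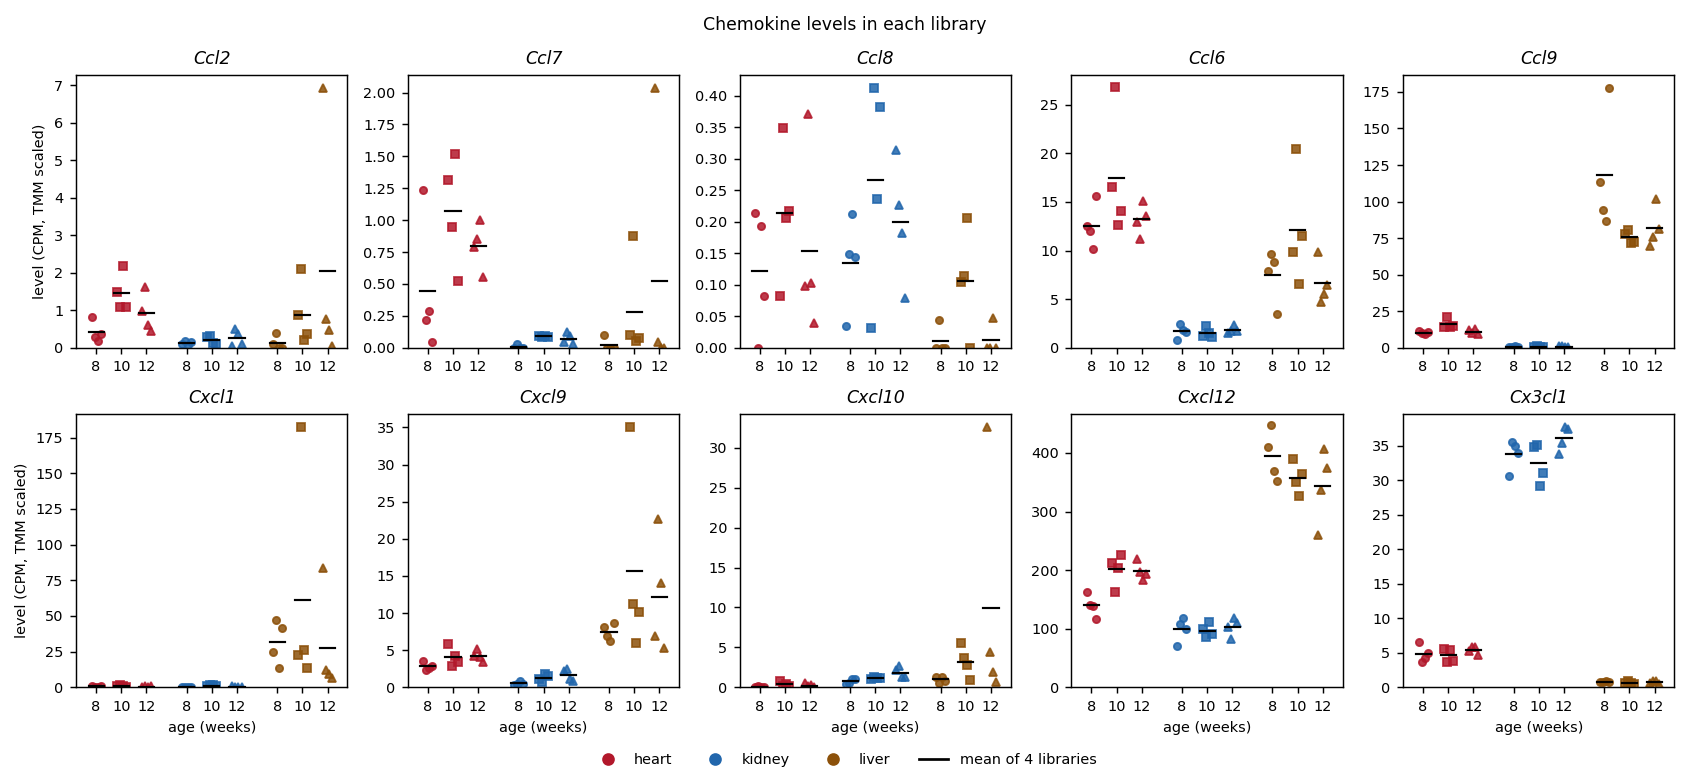
Level of each chemokine in each of the 36 libraries, with age in weeks on the horizontal axis and TMM-scaled CPM on the vertical axis (its scale differs between panels). Points are libraries and bars are means of 4. Cxcl12 and Ccl9 were highest in liver, Cx3cl1 was highest in kidney, and single liver libraries reached 182.3 CPM of Cxcl1 and 32.6 CPM of Cxcl10.

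The first comparison asked how the chemokines are divided among the organs. Per kilobase of exon, Cxcl12 led in all 3 tissues, at 43.8 ± 5.72 CPM per kb in liver, 21.6 ± 4.2 in heart and 12.0 ± 1.77 in kidney (SD, n = 12). The second place differed between organs. In liver it was Ccl9 at 29.5 ± 9.69, in heart Ccl6 at 7.94 ± 2.37, and in kidney Cx3cl1 at 8.61 ± 0.661 CPM per kb. Cxcl1 came next in liver at 21.4 ± 26.4, an SD larger than the mean. Further down, neighbours in the order lay within each other's SD. In heart these were Cx3cl1 (1.25 ± 0.237) with Cxcl9 (1.23 ± 0.339), Ccl7 (0.959 ± 0.571) with Ccl2 (0.819 ± 0.531), and Cxcl1 (0.368 ± 0.192) with Ccl8 (0.316 ± 0.226), and Cxcl10 was lowest at 0.0991 ± 0.103. In kidney Cxcl10 (0.556 ± 0.274), Cxcl1 (0.402 ± 0.235), Ccl8 (0.389 ± 0.241), Cxcl9 (0.385 ± 0.233) and Ccl9 (0.254 ± 0.0761) could not be ordered by their spread, and Ccl7 was lowest at 0.0693 ± 0.0548. In liver the last places fell to Cx3cl1 at 0.180 ± 0.0420 and Ccl8 at 0.0834 ± 0.129 CPM per kb.

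Between tissues, with ages averaged, most members passed edgeR's quasi-likelihood test at a Benjamini-Hochberg adjusted p under 0.05, as did most genes. The members called were 8 of 10 in heart against kidney, where 86.1% of all genes tested were called, 9 of 10 in heart against liver (84.2% of genes) and 9 of 10 in kidney against liver (83.1% of genes). A share so near the background is no property of the chemokines, and the sizes carry the description. The median log2 difference of all genes was -0.15 in heart against kidney and 0.16 in kidney against liver, so a difference of that size is no more than that of the median gene.

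Cx3cl1 was the member most marked in kidney. Its levels were 29.2 to 37.7 CPM in the 12 kidney libraries (median 34.9), 3.64 to 6.53 in heart and 0.438 to 0.975 in liver, without overlap between any pair of tissues. The log2 difference was 5.58 ± 0.11 (SE) for kidney against liver (adjusted p = 1.58e-31) and -2.79 ± 0.08 for heart against kidney (adjusted p = 5.49e-26). In liver Cx3cl1 rested on raw counts of 11 to 24 per library. Some pairs on Cx3cl1 were not counted, since the sum over the strand columns was 1.33 times the unstranded count in heart and kidney and 1.26 times in liver, and for Cxcl10 it was 1.13 to 1.17 times. For the other members the sums were the same to within 1 pair.

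Ccl9, a CC chemokine of mice and rats with no direct human counterpart, ran the other way. It measured 69.3 to 178 CPM in liver (median 80.9), 9.43 to 21.0 in heart and 0.502 to 1.18 in kidney, again without overlap. Liver exceeded kidney by 6.80 ± 0.14 on the log2 scale (kidney against liver -6.80, adjusted p = 1.66e-30) and heart exceeded kidney by 3.92 ± 0.14 (adjusted p = 9.15e-24). Its neighbour Ccl6 was instead highest in heart, at 14.4 ± 4.31 CPM against 8.72 ± 4.40 in liver and 1.67 ± 0.494 in kidney. The log2 difference of Ccl6 was 0.75 ± 0.17 for heart against liver (adjusted p = 0.000142), with the libraries of both tissues overlapping, and 3.10 ± 0.19 for heart against kidney.

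Cxcl12 was 366 ± 47.7 CPM in liver, 180 ± 35.0 in heart and 99.8 ± 14.7 in kidney. Liver lay above heart and kidney in every library, with log2 differences of -1.04 ± 0.08 for heart against liver (adjusted p = 4.94e-14) and -1.87 ± 0.08 for kidney against liver (adjusted p = 7.77e-21). Heart exceeded kidney by 0.83 ± 0.08 (adjusted p = 1.58e-11), and the libraries of these organs overlapped.

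Cxcl1 was at 6.35 to 182.3 CPM in liver, 0.276 to 1.29 in heart and 0.363 to 1.66 in kidney, and it did not pass the test in heart against kidney (log2 difference -0.03 ± 0.64, adjusted p = 0.985), where counts averaged 16.5 and 28.7 per library. Cxcl9 and Cxcl10, the ligands of Cxcr3, were also highest in liver, at 11.8 ± 8.78 and 4.72 ± 8.92 CPM, but divided between heart and kidney. The Cxcl10 mean in liver rested on 12-week replicate 1 at 32.6 CPM, and the medians were 1.63 CPM in liver and 1.17 in kidney. By age, the log2 difference of Cxcl10 in kidney against liver was -0.34 at 8 weeks (adjusted p = 0.712), -1.45 at 10 weeks (adjusted p = 0.0510) and -2.43 at 12 weeks (adjusted p = 0.000932). Heart had more Cxcl9, 3.72 ± 1.03 CPM against 1.16 ± 0.706 in kidney (log2 difference 1.79 ± 0.27, adjusted p = 2.57e-07). Kidney had more Cxcl10, 1.25 ± 0.616 CPM against 0.223 ± 0.233 in heart (log2 difference -2.72 ± 0.57, adjusted p = 5.46e-05).

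Ccl2, Ccl7 and Ccl8 were scarce in heart, kidney and liver. Ccl2 averaged 22.4 raw counts per library in heart, 7.08 in kidney and 23.6 in liver. Its heart against liver did not pass the test (0.35 ± 0.52, adjusted p = 0.545). Ccl7 averaged 18.7 counts in heart and 2.08 in kidney, with 6.50 in liver, and its kidney against liver did not pass (-2.0 ± 1.2, adjusted p = 0.115). Without the 4 libraries that stood apart, the log2 difference of Ccl2 in heart against liver was 1.52 with an adjusted p of 0.00189. Of 6 alternative settings 2 called it, this one among them, so the outcome depended on these libraries and on the setting. In kidney against liver, Ccl2 was called at -1.80 ± 0.63 (adjusted p = 0.00970) but not without these libraries (-0.74, adjusted p = 0.152) or by limma-voom (-1.02, adjusted p = 0.0974). Cxcl10 there was -1.41 ± 0.40 (adjusted p = 0.00187), stayed called without these libraries (-0.70, adjusted p = 0.0293) and was not called by limma-voom (-0.90, adjusted p = 0.0757). Ccl8 reached at most 15 counts in any library, and 7 of 12 liver libraries had none.

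The receptors were measured in the same libraries. Ackr3, the scavenger of Cxcl12, was at 65.6 ± 9.56 CPM in heart, 36.7 ± 10.2 in kidney and 1.00 ± 0.458 in liver, so the organ with the most Cxcl12 transcript had the least Ackr3 (log2 difference 6.05 ± 0.18 for heart against liver, adjusted p = 4.57e-26). Heart exceeded kidney in Ackr3 (0.85 ± 0.13) as it did in Cxcl12, so that pair of organs showed no such opposite order. Cxcr4 followed the order of Ackr3 at 6.15 ± 1.21, 2.93 ± 0.635 and 1.04 ± 0.864 CPM. Ccr2 had 2.77 ± 1.14, 3.64 ± 0.920 and 1.65 ± 0.553 CPM in heart, kidney and liver, and Cx3cr1 had 2.30 ± 1.51, 3.36 ± 0.861 and 0.773 ± 0.455. Ccr1, Cxcr2 and Cxcr3, the receptors of Ccl6 and Ccl9, Cxcl1, and Cxcl9 and Cxcl10, averaged no more than 1.06 CPM in any organ. Of 22 receptors, 10 to 13 entered the tests of ages in a tissue, and edgeR called none of them in any of the 9 comparisons. At an unadjusted p under 0.05 there were 1 to 3 of them, and 11.7% to 23.4% of all genes.

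The second comparison asked how the chemokines changed between 8, 10 and 12 weeks. To enter the test in a tissue, a gene needed 1 age with a mean count of 10 or more and a count in 2 or more of its libraries. Of the 10 members, 8 passed in heart (not Ccl8 and Cxcl10), 8 in kidney (not Ccl2 and Ccl7) and 9 in liver (not Ccl8). Cxcl10 counts in heart were 2, 3, 1 and 0 at 8 weeks, 19, 4, 10 and 3 at 10 weeks, and 10, 4, 8 and 0 at 12 weeks. Ccl7 counts in kidney were 0, 1, 0 and 0 at 8 weeks, 3, 3, 4 and 3 at 10 weeks, and 2, 5, 3 and 1 at 12 weeks. Ccl2 counts in kidney were 2 to 20 over the 12 libraries. In a fit of all genes with no filter, Cxcl10 in heart passed the test at 10 against 8 weeks (adjusted p = 0.0221), Ccl7 in kidney did not at any ages, nor did Ccl2 in kidney or Ccl8 in heart. For heart Ccl2 and Ccl7 at 10 against 8 weeks, that fit gave smaller standard errors than the filtered one, so its calls are less strict.

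**Figure D2:**
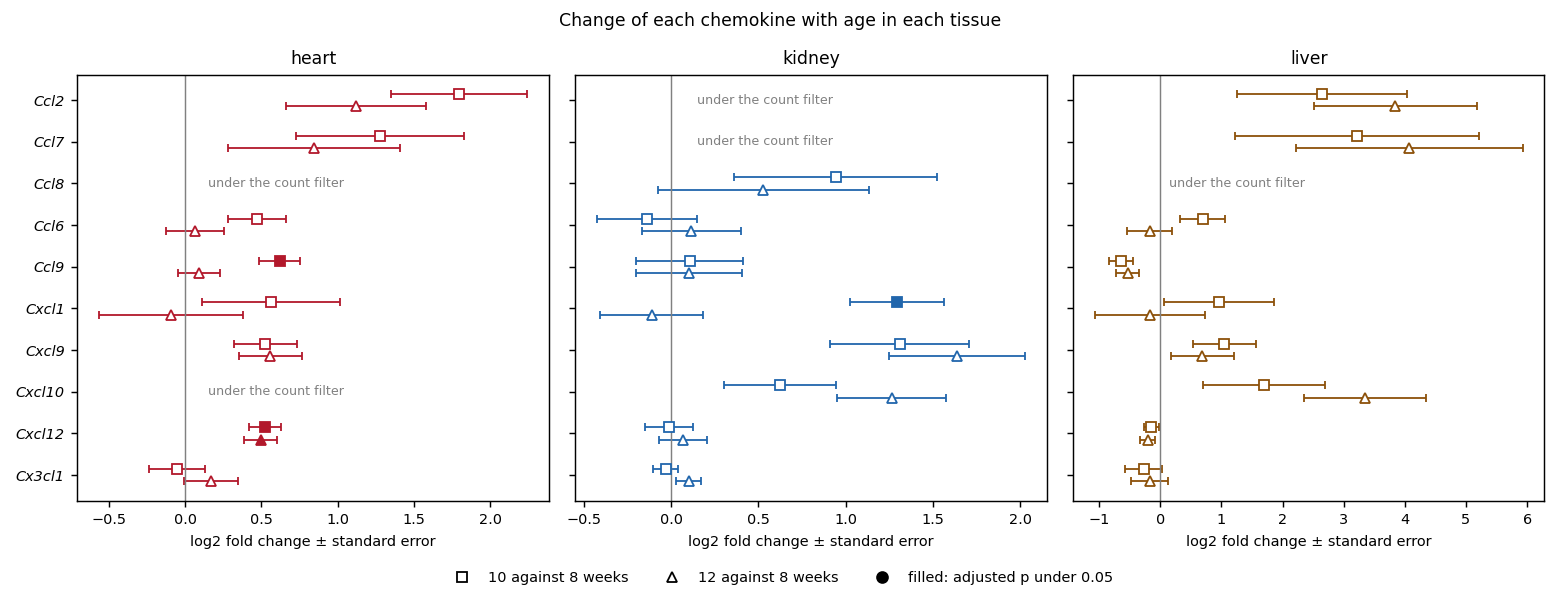
Log2 fold change (horizontal axis, with standard error) of each chemokine (rows) in each tissue at 10 against 8 weeks (squares) and 12 against 8 weeks (triangles), with the horizontal scale set for each tissue. Filled symbols passed an adjusted p of 0.05, which were Cxcl12 at both ages and Ccl9 at 10 weeks in heart, and Cxcl1 at 10 weeks in kidney.

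In heart, Cxcl12 rose by 10 weeks and stayed up at 12. It measured 164, 140, 139 and 117 CPM at 8 weeks, 213, 163, 203 and 227 at 10 weeks, and 219, 197, 184 and 193 at 12 weeks. All 12-week libraries lay above all 8-week ones, while the lowest 10-week library, replicate 2, lay just under the highest 8-week library. The log2 fold change was 0.50 ± 0.11 at 12 against 8 weeks (adjusted p = 0.0200) and 0.52 ± 0.11 at 10 against 8 weeks (adjusted p = 0.0275). From 10 to 12 weeks it was -0.03 ± 0.11 (adjusted p = 0.940). Leaving out each heart library in turn kept the fold change between 0.42 and 0.58 at 12 against 8 weeks, and the call was lost in 4 of 12 such fits, with adjusted p up to 0.0675. These were the fits without 12-week replicate 1 or without 8-week replicate 2, 3 or 4. At 10 against 8 weeks the call was lost in 6 of 12, between 0.45 and 0.61.

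Cxcl12 was the 1 member of 8 called at 12 against 8 weeks in heart, where 4.56% of all genes were called. At 10 against 8 weeks 2 of 8 were called, both higher, against 1.06% of all genes. From 10 to 12 weeks none of 8 was called by edgeR (0.0396% of all genes), with 2 at an unadjusted p under 0.05 (11.7% of all genes) and 1 called by DESeq2. The median log2 fold change of the 8 members was 0.33 at 12 against 8 weeks, 0.54 at 10 against 8 weeks and -0.42 at 12 against 10 weeks, against 0.00090, -0.0045 and 0.0034 for all genes.

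Ccl9 was the other member called. Its levels were 11.2, 10.2, 9.43 and 10.6 CPM at 8 weeks, 14.1, 21.0, 14.3 and 14.5 at 10 weeks, and 11.8, 10.1, 12.8 and 9.54 at 12 weeks. Every 10-week library lay above every library of the other ages, and replicate 2 was far above the rest. The log2 fold change at 10 against 8 weeks was 0.62 ± 0.13 (adjusted p = 0.0337), and at 12 against 10 weeks it was -0.53 ± 0.13 (adjusted p = 0.227). Without the 10-week replicates 2 and 4, which carried hepatocyte markers, it was 0.45 at 10 against 8 weeks and no longer called (adjusted p = 0.134). The call was also lost in 5 of 12 fits without 1 library. Replicates 1 and 3 at 10 weeks, which did not stand apart, were at 14.1 and 14.3 CPM. Hepatocyte markers summed to at most 24.7 CPM in 10-week heart, against a mean of 125973 CPM in liver, where Ccl9 averaged 91.9 CPM. Whether liver RNA entered the Ccl9 values in heart was not tested.

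Ccl6 showed the same high library. It measured 12.5, 12.0, 10.1 and 15.6 CPM at 8 weeks, 16.6, 26.8, 12.7 and 14.0 at 10 weeks, and 12.98, 11.2, 15.1 and 13.6 at 12 weeks, with ages overlapping. The fold change at 10 against 8 weeks was 0.47 ± 0.19 (adjusted p = 0.235). The summed neutrophil markers of 10-week replicate 2 were 17.2 CPM, against 1.93 to 6.80 in the other heart libraries.

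Ccl2 was higher at 10 weeks without passing the test. Raw counts were 19, 8, 4 and 9 at 8 weeks, 36, 22, 53 and 25 at 10 weeks, and 20, 44, 18 and 11 at 12 weeks, so that all 10-week libraries lay above all 8-week ones. The fold change was 1.80 ± 0.45 at 10 against 8 weeks (adjusted p = 0.0640) and 1.12 ± 0.46 at 12 against 8 weeks (adjusted p = 0.154). DESeq2 called the 10-week change (adjusted p = 0.00787), as did edgeR without the 2 libraries that held hepatocyte markers (2.11, adjusted p = 0.0441).

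Ccl7, the neighbour of Ccl2 and a ligand of the same receptor, gave counts of 29, 6, 6 and 1 at 8 weeks, 32, 19, 37 and 12 at 10 weeks, and 16, 23, 29 and 14 at 12 weeks. Replicate 1 at 8 weeks lay among the older libraries and the other three lay below them. The fold change was 1.28 ± 0.55 at 10 against 8 weeks (adjusted p = 0.274) and 0.85 ± 0.56 at 12 against 8 weeks (adjusted p = 0.380). Without 8-week replicate 1 it was 2.55 (adjusted p = 0.0192) and 2.12 (adjusted p = 0.0271), so the values rested on this library. With it kept, the change at 10 weeks was also called in the fit of all genes with no filter (1.28, adjusted p = 0.0253). There its standard error was 0.37, against 0.55 in the filtered fit, so that call is less strict. Cxcl9 gave 0.53 ± 0.21 at 10 and 0.56 ± 0.20 at 12 weeks against 8 weeks, with adjusted p of 0.225 and 0.113.

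Genes of other lists were also called in heart. Of all genes, 1.06% were called at 10 against 8 weeks and 4.56% at 12 against 8 weeks. The shares at an unadjusted p under 0.05 were 15.8% and 23.4%. Of 10 fibroblast and stromal genes, 4 were called higher at 10 against 8 weeks, among them Lum (0.68 ± 0.09), a small proteoglycan, and the growth factor receptor Pdgfra (0.53 ± 0.08), and 2 at 12 against 8 weeks (Pdgfra and Lum). The summed level of this list was 1951 to 2081 CPM at 8 weeks, 2161 to 2598 at 10 weeks and 1974 to 2104 at 12 weeks. EdgeR called none of 15 macrophage and monocyte genes, with 8 at an unadjusted p under 0.05, though all 15 had a higher estimate at 10 than at 8 weeks, with a median of 0.34. Of 19 interferon-stimulated genes, Gbp2 alone was called, at 0.70 ± 0.15 for 10 weeks and 0.58 ± 0.15 for 12 weeks against 8 weeks. Nfkbia, the inhibitor of NF-kappaB and the one gene of 11 tested in its list to be called, fell by 0.68 ± 0.14 at 12 against 8 weeks (adjusted p = 0.0173). EdgeR called none of 10 other chemokines tested at 10 or 12 against 8 weeks, with 3 at an unadjusted p under 0.05 in each, and Ccl12 had the lowest adjusted p, 0.0567 at 12 weeks. Of 6 cardiomyocyte genes, Ryr2 (0.48 ± 0.10) and Myl2 (0.41 ± 0.10) were called higher at 12 against 8 weeks. Of 9 endothelial genes, Robo4 was called lower at 10 weeks (-0.41 ± 0.08) and Tie1 at 12 weeks (-0.26 ± 0.07). The hepatocyte gene Ttr (3.27 ± 0.75) and the kidney tubule gene Lrp2 (4.10 ± 0.92) were called higher at 10 against 8 weeks. Their part in the chemokine values was not tested.

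In kidney, Cxcl1 was higher at 10 weeks than at either other age. Raw counts were 16, 19, 22 and 20 at 8 weeks, 21, 53, 70 and 47 at 10 weeks, and 29, 17, 12 and 18 at 12 weeks. On the CPM scale these were 0.481 to 0.567, 0.659 to 1.66 and 0.363 to 0.649, and the 10-week libraries lay above all others, replicate 1 by the least. The log2 fold change was 1.29 ± 0.27 at 10 against 8 weeks (adjusted p = 0.0395) and -1.41 ± 0.27 at 12 against 10 weeks (adjusted p = 0.0385). Both calls were near the threshold. With limma-voom the adjusted p was 0.0587 and 0.0584, and the calls were lost in 7 and 8 of 12 fits without 1 library, with adjusted p up to 0.132 and 0.129. Cxcl1 was the 1 member called of 8 in each of these comparisons, against 0.929% of all genes at 10 against 8 weeks and 0.482% at 12 against 10 weeks.

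Cxcl9 and Cxcl10 had higher estimates at each later age in kidney but passed the test at none. Cxcl9 counts were 10, 17, 34 and 19 at 8 weeks, 37, 27, 76 and 56 at 10 weeks, and 98, 100, 36 and 31 at 12 weeks. Cxcl10 counts were 11, 18, 43 and 45, then 32, 48, 52 and 41, then 97, 104, 43 and 48. On the CPM scale the 12-week libraries lay above the 8-week ones for both genes, and replicates 1 and 2 at 12 weeks were the highest for both. At 12 against 8 weeks the fold change was 1.64 ± 0.39 for Cxcl9 (adjusted p = 0.181) and 1.26 ± 0.31 for Cxcl10 (adjusted p = 0.196). None of 8 members was called there by edgeR, with 2 at an unadjusted p under 0.05 (11.7% of all genes), where 0.0567% of all genes were called. DESeq2 called both genes, with adjusted p of 0.0103 for Cxcl9 and 0.0191 for Cxcl10.

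Of 19 interferon-stimulated genes tested in kidney, 18 had a higher estimate at 12 than at 8 weeks with a median of 0.27. Of the 19, 1 was called, against 0.0567% of all genes, and 7 had an unadjusted p under 0.05, as had 11.7% of all genes. Their summed level was 141 to 155 CPM at 8 weeks, 174 to 213 at 10 weeks and 157 to 224 at 12 weeks. T and natural killer cell genes summed to 3.05 to 4.30 CPM at 8 weeks and 3.88 to 6.93 at 12 weeks. At 12 against 8 weeks edgeR called 0 of 8 of them, with 2 at an unadjusted p under 0.05 (11.7% of all genes). Of 15 macrophage and monocyte genes it also called 0, with 6 at an unadjusted p under 0.05. Of the 15, 11 had a higher and 4 a lower estimate. Cx3cl1 and Cxcl12, the abundant chemokines of kidney, had fold changes at 12 against 8 weeks of 0.10 ± 0.07 and 0.07 ± 0.14 (adjusted p = 0.628 and 0.888).

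**Figure D3:**
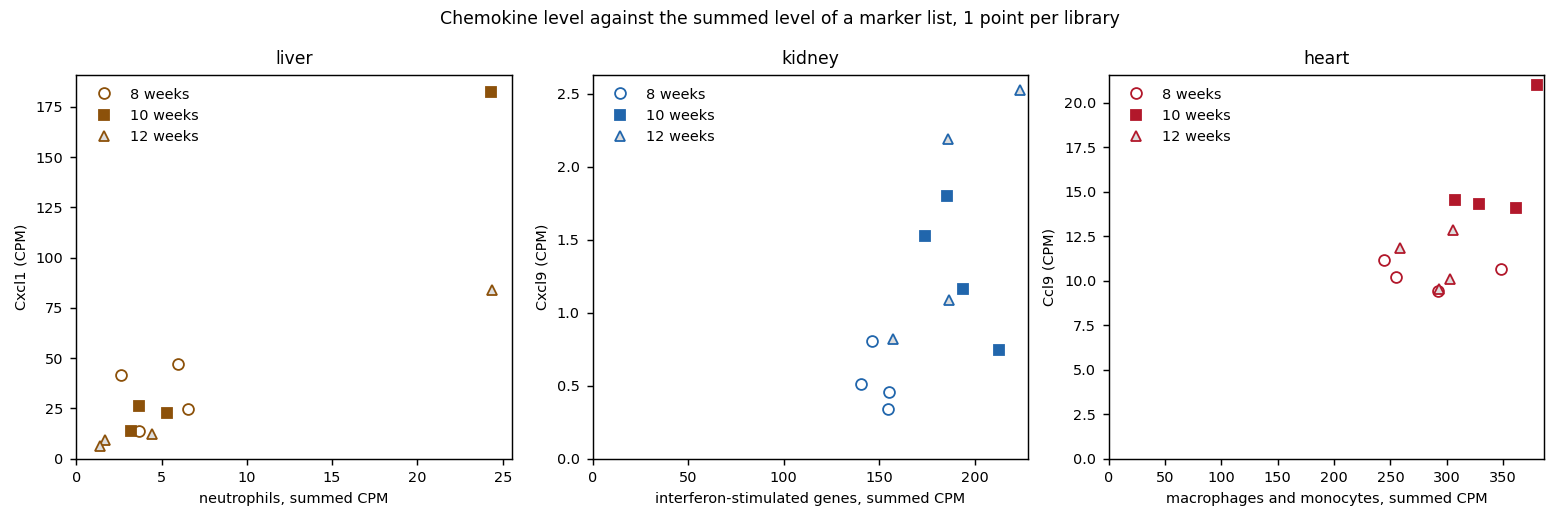
Level of a chemokine (vertical axis, CPM) against the summed level of a marker list (horizontal axis, CPM), 1 point per library. In liver 2 libraries with 24.3 and 24.4 CPM of neutrophil markers held the most Cxcl1, in kidney the 8-week libraries were lowest in interferon-stimulated genes and low in Cxcl9, and in heart all 10-week libraries lay above the others in Ccl9.

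In liver none of 9 members was called between any ages by edgeR, where 0.239% of all genes were called at 12 against 8 weeks, 0.0204% at 10 against 8 weeks and 0.0545% at 12 against 10 weeks. At an unadjusted p under 0.05 there were 4, 1 and 1 members, where 15.1%, 14.3% and 14.1% of all genes lay, and DESeq2 called 1 at 12 against 8 weeks, Cxcl10. For Cxcl1, Ccl2, Ccl7 and Cxcl10, libraries of 1 age lay far apart. Cxcl1 counts were 490, 1078, 224 and 680 at 8 weeks, 439, 4772, 503 and 342 at 10 weeks, and 1934, 251, 198 and 131 at 12 weeks. The 10-week replicate 2 and the 12-week replicate 1 exceeded every other liver library in Cxcl1, Ccl2 and Ccl7.

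Ccl2 counts were 2, 9, 0 and 0 at 8 weeks, 17, 55, 4 and 9 at 10 weeks, and 160, 16, 10 and 1 at 12 weeks. Ccl7 counts were 2, 0, 0 and 0, then 2, 23, 1 and 2, then 47, 1, 0 and 0. Cxcl10 counts were 25, 13, 21 and 14 at 8 weeks, 108, 95, 53 and 24 at 10 weeks, and 751, 92, 42 and 15 at 12 weeks. Thus Ccl2, Ccl7 and Cxcl10 peaked in 12-week replicate 1, and Cxcl1 in 10-week replicate 2. The fold change of Cxcl10 at 12 against 8 weeks was 3.34 ± 1.00 (adjusted p = 0.163) and that of Ccl2 was 3.84 ± 1.33 (adjusted p = 0.213). Without both libraries they were 1.25 and 1.55, and Cxcl1 gave -1.80 with an adjusted p of 0.0733.

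These libraries also had the highest summed level of the upstream cytokine and NF-kappaB list, 267 and 400 CPM against 165 to 211 in the other liver libraries. They shared the high neutrophil list given above but not the macrophage and interferon lists. The 10-week replicate 2 had the highest macrophage list of all liver libraries, 796 CPM, and the highest interferon-stimulated list, 1432 CPM, whereas the 12-week replicate 1 had 290 and 753 CPM, within the range of the others. Over all liver libraries, edgeR called 0 of 19 macrophage and monocyte genes between any ages. At an unadjusted p under 0.05 there were 14 at 10 against 8 weeks and 14 at 12 against 10 weeks (14.3% and 14.1% of all genes). Of the 19, 18 had a higher estimate at 10 than at 8 weeks, and all 19 a lower one at 12 than at 10 weeks. The part of these lists in the chemokine levels was not tested.

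**Figure D4:**
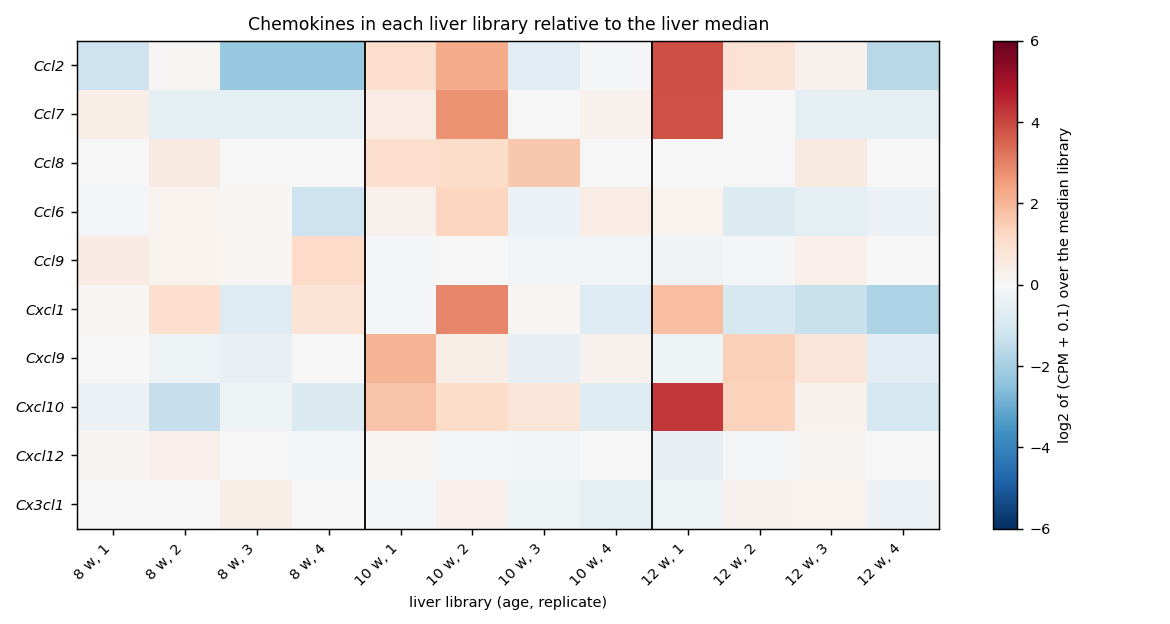
Each chemokine (rows) in the 12 liver libraries (columns, age in weeks and replicate), as the log2 of CPM plus 0.1 over the median liver library. Red is above and blue below the median, and 10-week replicate 2 and 12-week replicate 1 are red for Ccl2, Ccl7, Cxcl1 and Cxcl10.

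The abundant liver chemokines varied less. Ccl9 measured 113.4, 94.0, 86.7 and 178 CPM at 8 weeks, 78.1, 80.7, 71.6 and 72.4 at 10 weeks, and 69.3, 75.5, 102 and 81.1 at 12 weeks, and all 10-week libraries lay below all 8-week ones. The fold change was -0.64 ± 0.19 at 10 weeks (adjusted p = 0.175) and -0.53 ± 0.19 at 12 weeks against 8 weeks (adjusted p = 0.230). With each library left out in turn, these Ccl9 values ranged from -0.76 to -0.38 and from -0.65 to -0.27. Cxcl12 gave -0.21 ± 0.13 at 12 against 8 weeks (adjusted p = 0.471). Cxcl9 was 35.1 CPM in 10-week replicate 1 and 22.7 in 12-week replicate 2, and so peaked in other libraries than Cxcl1, Ccl2 and Cxcl10.

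Whether the change from 8 to 12 weeks differed between organs was tested by an interaction term over the 36 libraries. None of 10 members passed in heart minus kidney by edgeR (0.112% of all genes) or in kidney minus liver (0.304% of all genes), and in each 1 member had an unadjusted p under 0.05, as had 11.1% and 11.2% of all genes. In heart minus liver, Cxcl12 alone passed, at 0.70 ± 0.19 on the log2 scale (adjusted p = 0.0361), where 4.16% of all genes did. Heart Cxcl12 had gone up by 0.50 and liver Cxcl12 down by 0.21 in their own fits. Without the 4 libraries that stood apart the difference was 0.58 and not called (adjusted p = 0.0669). With the heart called and the kidney not, Cxcl12 in heart minus kidney was 0.44 ± 0.20 (adjusted p = 0.398), so a difference between these organs was not shown.

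Neighbouring genes were also compared across the 12 libraries of each tissue, as 9 relations of log2 CPM with permutation p-values from 100000 resamples, two-sided. Ccl2 and Ccl7 moved together in all 3 organs, with Pearson r of 0.75 in heart, 0.63 in kidney and 0.84 in liver (permutation p adjusted over the 9 relations 0.00893, 0.0468 and 0.00328) and Spearman rho of 0.73, 0.68 and 0.68 (adjusted permutation p = 0.0331 for each). With age means subtracted r was 0.54, 0.75 and 0.83, and without the 2 farthest libraries it was 0.69, 0.45 and 0.68. In kidney Ccl7 had at most 5 counts, which limits that value. Cxcl9 and Cxcl10 gave r of 0.67 in heart, 0.83 in kidney and 0.32 in liver (adjusted permutation p = 0.0336, 0.00328 and 0.297) and rho of 0.68, 0.68 and 0.48. With age means subtracted r was 0.54, 0.63 and 0.19. Without the 2 farthest libraries r was 0.61, 0.66 and 0.06. Ccl6 and Ccl9 gave r of 0.82 in heart, 0.42 in kidney and -0.52 in liver (adjusted permutation p = 0.00893, 0.192 and 0.124). Their rho was 0.66, 0.38 and -0.44 (adjusted permutation p = 0.0331, 0.229 and 0.175). With age means subtracted r was 0.79, 0.44 and -0.54. Without the 2 farthest libraries it was 0.44, 0.22 and -0.13, so the size of the heart r rested in part on them. Libraries of a tissue share preparation and depth.

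The genes most like each member were sought among 12537 genes kept in all 3 tissues, by Pearson r over the 36 libraries after subtracting each tissue mean, as a description. Cxcl9 was followed most closely by Gbp2 (0.84) and Tgtp2 (0.79), both interferon-induced GTPases. For Gbp2 the parts of this value within heart, kidney and liver were 0.75, 0.93 and 0.83, which are no separate check. Ccl6 was followed by Axl (0.81), a receptor kinase of macrophages, and Entpd1 (0.73). Ccl2 was followed by the innate receptor Tlr2 (0.82) and Cxcl1 by Tgfb1 (0.77) and Stat3 (0.76), with the liver giving most of it (0.90, 0.88 and 0.94). The liver libraries that stood apart were kept in these values. For Stat3 the kidney value was 0.05. Cxcl12 was followed by Xxylt1 (0.70) and by Pdgfra (0.70), the fibroblast marker named above, with 0.82, 0.74 and 0.76 for Pdgfra within heart, kidney and liver. Ccl7 was followed by Tpm4 (0.80), Ccl8 by Zbp1 (0.57), Ccl9 by Ppp1cc (0.59), Cxcl10 by Cxadr (0.79) and Cx3cl1 by Mnat1 (0.63). With so many genes compared, values near 0.6 carry little.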

How the data were processed

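Per the labels and the study's methods, the authors checked reads with FastQC 0.11.9, trimmed them with cutadapt 4.2, aligned them with STAR 2.7.11b to GRCm39 with Ensembl annotation, and deposited unnormalized counts of read pairs per gene. STAR counts a pair only where it maps once and overlaps 1 gene, so genes overlapped on the other strand lose pairs in the unstranded column used here. Polyadenylated RNA had been sequenced. Rows naming no gene (21.2% to 31.4% of pairs) were left out. Symbols, positions and union exon lengths came from GENCODE M39, which matched 78168 identifiers.

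Each tissue's 12 libraries were fitted in edgeR 4.0.16 (R 4.3.3) with a mean per age, TMM factors, and the study's filter, which kept 15137 heart, 17649 kidney and 14672 liver genes. Tissues and interactions came from 1 fit of 36 libraries with 19716 genes. P-values of glmQLFTest were adjusted by Benjamini-Hochberg over all genes kept, and 0.05 was the threshold. Depth of 21031599 to 33637390 pairs gives wide counting error below about 50 counts. The methods were checked on simulated data. Alternatives were RLE factors, no filter, filterByExpr, limma-voom 3.58.1, DESeq2 1.42.0, the strand columns summed, 2 ages only, a replicate block and each library left out. Leaving out the libraries that stood apart was chosen after seeing the data. The smallest chi-square per degree of freedom between replicates was 5.90, so no library was a copy. Per the study's methods the 4 libraries of a group were biological replicates. Each age had more libraries than mice, so organs shared animals, but the labels do not say which, and the fit of 36 libraries treats them as independent. A further promoter motif that was searched is not reported here.

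The chemokines, lists and tests were chosen with earlier results of these data known. All members are named. From each other list, genes were taken from the 3 lowest adjusted p-values in comparisons where a member was called, and the genes most like a member by the highest r.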

Additional observations from a re-analysis of the deposited data

Results flagged for a closer look

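Within each of the 90 groups of 4 libraries (10 chemokines in 9 groups), the library farthest from its neighbour was compared with Dixon's critical value. For normally distributed values chance exceeds it in about 1 group of 20, a rate that does not hold for low counts. Of the libraries, 12 exceeded it. Replicate 1 of 12-week liver did so for Ccl2 (6.94 CPM, 160 counts against 1 to 16), Ccl7 (2.04 CPM, 47 counts against 0 to 1), Cxcl1 (83.9 CPM, 1934 counts against 131 to 251) and Cxcl10 (32.6 CPM, 751 counts against 15 to 92). Replicate 2 of 10-week liver did so for Cxcl1 (182.3 CPM, 4772 counts against 342 to 503) and Ccl7 (0.879 CPM, 23 counts against 1 to 2). Replicate 2 of 10-week heart did so for Ccl9 (21.0 CPM, 422 counts against 334 to 348).

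The other libraries rested on few counts, and where the rest of a group had 0 counts, any count exceeds the critical value. They were Ccl7 in 8-week kidney replicate 2 (0.0298 CPM, 1 count) and 8-week liver replicate 1 (0.10 CPM, 2 counts), Ccl8 in 8-week liver replicate 2 (0.0437 CPM, 1 count) and 12-week liver replicate 3 (0.0471 CPM, 1 count), and Cx3cl1 in 8-week liver replicate 3 (0.975 CPM, 16 counts against 12 to 17).

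The change of Cxcl12 from 8 to 12 weeks differed between heart and liver by 0.70 on the log2 scale in the interaction test.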

How the results depend on the processing

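Main counts of called chemokines were 1, 2 and 0 in heart (12 against 8, 10 against 8 and 12 against 10 weeks), 0, 1 and 1 in kidney and 0 in each liver comparison. A required log2 fold change over 1 left 0 for heart at 12 and at 10 against 8 weeks. Without the count filter they were 6 and 2 for heart at 10 against 8 and 12 against 10 weeks, 2 for kidney at 12 and at 10 against 8 weeks, and 2 and 1 for liver at 12 and 10 against 8 weeks. Standard errors there were smaller than the main ones for Ccl2 and Ccl7 in heart, Cxcl9 and Cxcl10 in kidney and Cxcl10 in liver. Those calls are therefore less strict. DESeq2 gave 1 for heart at 12 against 10 weeks, 2 for kidney at 12 and at 10 against 8 weeks, and 1 for liver at 12 against 8 weeks. For kidney at 12 against 10 weeks it gave 0, but there Cxcl1 received no adjusted p from DESeq2 and so was not assessed. Limma-voom, the replicate block and a fit of 2 ages gave 0 for both kidney comparisons with Cxcl1. Within a tissue the replicate block joined libraries of different mice by number alone, so it does not account for shared animals. For the interaction, no filter gave 3 in heart minus liver and 2 in kidney minus liver, and leaving out 4 libraries gave 0 in heart minus liver. With 1 library left out, counts ranged from 0 to 4 and from 0 to 2 for heart at 10 and 12 against 8 weeks, and from 0 to 1 for both Cxcl1 comparisons.

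Same-numbered libraries of different ages correlated over 0.1 in 8 of 36 pairs, and 12 of 36 correlated best with their own number, so numbers were not treated as pairs. Between tissues of 1 age, 21 of 36 pairs correlated over 0.1 and 29 of 36 best with their own number, a hint of shared animals. Blocking on age and number left the tissue counts at 8, 9 and 9 and the interaction counts at 0, 1 and 0. Under the replicate block within kidney, which joined different mice, Cxcl1 had adjusted p of 0.0716 and 0.0677, and its log2 fold changes were 1.28 and -1.38.

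Log2 fold changes that reversed were all uncalled. Leaving out the heart libraries with hepatocyte markers gave 0.17 for Cx3cl1 at 10 against 8 weeks, -0.26 for Cxcl9 and -0.012 for Cx3cl1 at 12 against 10 weeks. In kidney limma-voom gave 0.0047 for Cxcl12 at 10 against 8 weeks and 0.0045 for Ccl9 at 12 against 10 weeks, for which no filter gave 0.0062 and the block 0.022. Leaving out the 2 liver libraries gave -0.62 for Cxcl1 at 10 against 8 weeks and 0.044, -0.16 and -0.38 for Cxcl12, Ccl2 and Cxcl10 at 12 against 10 weeks. At 12 against 10 weeks in liver, summed strand columns gave -0.21 for Cx3cl1, and voom and the block -0.87 and -0.12 for Ccl7. Without 4 libraries Cxcl1 in heart against kidney was 0.019 and Ccl7 in kidney against liver 0.20.

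With each library left out in turn, the sign also turned for these uncalled values. In heart at 10 against 8 weeks, Cx3cl1 ranged from -0.17 to 0.13. In heart at 12 against 10 weeks, Cxcl12 ranged from -0.12 to 0.033 and Cxcl9 from -0.091 to 0.26. In heart at 12 against 8 weeks, Ccl6 ranged from -0.018 to 0.19, Ccl9 from -0.00093 to 0.16 and Cxcl1 from -0.49 to 0.27. In kidney at 10 against 8 weeks, Ccl6 ranged from -0.39 to 0.079, Ccl9 from -0.13 to 0.30, Cx3cl1 from -0.072 to 0.021 and Cxcl12 from -0.14 to 0.080. In kidney at 12 against 10 weeks, Ccl9 ranged from -0.16 to 0.23. In kidney at 12 against 8 weeks, Ccl6 ranged from -0.088 to 0.33, Ccl9 from -0.049 to 0.30 and Cxcl12 from -0.058 to 0.16. In liver at 10 against 8 weeks, Cxcl1 ranged from -0.62 to 1.29. In liver at 12 against 10 weeks, Ccl2 ranged from -1.08 to 2.13, Ccl9 from -0.0078 to 0.17, Cx3cl1 from -0.059 to 0.33, Cxcl1 from -2.75 to 0.45, Cxcl10 from -0.45 to 2.04, Cxcl12 from -0.15 to 0.048 and Cxcl9 from -0.83 to 0.41. In liver at 12 against 8 weeks, Cxcl1 ranged from -1.80 to 0.15.

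Depth limits Ccl2, Ccl7, Ccl8, heart and kidney Cxcl1 (the member called in kidney), heart Cxcl10, kidney Ccl9 and liver Cx3cl1, whose group means all lay under 50 counts, and kidney Cxcl9 and Cxcl10 at 8 and 10 weeks and liver Cxcl10 at 8 weeks, which did too. In these comparisons of 4 libraries a missed threshold does not show that ages were alike. Why values moved with the setting was not tested.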
